A study of Mus musculus with 16 samples.

Results

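The DNA replication and S phase genes examined here are 41 protein-coding genes of the mouse, named in a list by symbol and sorted into 7 roles at the replication fork: origin licensing (10 genes), helicase activation (6), polymerases and primase (7), clamp, clamp loader and strand joining (8), nucleotide supply (5), chromatin assembly and methylation upkeep (3), and S phase control and checkpoint (2). All 41 had a row among the 54838 genes of the count table, and all 41 were among the 18214 genes with enough counts to be tested. Their RNA was measured by bulk RNA sequencing of adrenal glands from mice of mixed genetic background at an age of 4 weeks, with 1 mouse per library. The 4 groups of 4 libraries were female control, female Rspo1 GOF, male control and male Rspo1 GOF, where GOF stands for gain of function and the Rspo1 product, R-spondin 1, is a secreted amplifier of the WNT pathway. The labels name no allele, promoter or Cre driver for the gain of function, state no genotype for the controls beyond that word, and do not say whether the mice were littermates. The study asked how sex shapes expression in control and GOF adrenals, and here that question is put to the genes that copy DNA.

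A cell copies its genome once per cycle. In G1, the origin recognition complex, CDC6 and CDT1 load the ring-shaped MCM helicase onto DNA, and at the start of S phase CDC45 and the GINS complex switch that ring on. Primase and DNA polymerase alpha then lay down primers, polymerases delta and epsilon extend them with the sliding clamp PCNA, and nucleotide enzymes, ligase and chromatin assembly factors keep pace. Most of these genes are transcribed in a burst before S phase under E2F factors, so in bulk tissue their RNA is commonly read as a sign of how many cells are preparing for or passing through S phase. In the growing adrenal cortex, new steroidogenic cells arise mainly beneath the capsule, where R-spondins act. In bulk RNA, a change in the number of such cells and a change in RNA per cell cannot be told apart.

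Library totals ran from 31275146 to 43003968 counts, and the 41 genes together took between 0.0501% and 0.217% of them. Rspo1 itself stood at 48.3 CPM or less (counts per 1e6 counts after TMM scaling of the library totals) in controls and at 354 to 972 CPM in GOF, and Xist and Ddx3y placed every library with its labelled sex. The 8 steroidogenic genes shared by the adrenal zones summed to 33734 CPM or more in every library, so all 16 carried the labelled tissue. RNA of neighbouring organs was highest in 3 libraries. The sum of 8 kidney tubule genes was 939 CPM for female control 1 and 162 CPM for female control 3, and that of 10 liver genes was 8585 CPM for male control 2. Counts of the 41 genes are therefore also given without these 3 libraries, called here those with RNA of other organs. The other libraries were not all free of such RNA, with liver sums of 56.3 CPM in male GOF 3 and 26.6 CPM in male control 3. The labels give each mouse a number, and the numbers fall into 4 ranges (called here the first to the fourth, the third with 1 mouse only); what a range stands for is not stated.

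Promoters from 250 bases before to 50 bases after the start of transcription were listed by RefSeq (build GRCm38.p6) for 34 of the 41 genes. They were searched on both strands for 4 words that E2F factors are known to bind, TTTCCCGC, TTTGGCGC, TTTCGCGC and TTTGCCGC. Of the 34 genes, 15 (44.1%) held at least 1 word in a listed promoter, against 2.60% of 27025 genes in the same table. These were Cdc6, Cdt1, Clspn, Gins3, Lig1, Mcm3, Mcm5, Mcm6, Mcm7, Orc1, Pola1, Pold1, Pole2, Rfc3 and Uhrf1. Most genes of the list are known to be under E2F factors, so this share describes the list and is no result of the libraries. The 27025 genes were not limited to those tested here. A match is only a description of letters, and an absent match says nothing of E2F itself. The CCAAT box, a common promoter word, was in 58.8% of the 34 genes against 41.1% of all, and the cell cycle homology word (TTTGAA or TTTAAA), known from promoters of mitotic genes, in 23.5% against 30.6%. To show where such words lie, promoters are printed in the gene's own direction, with the E2F words in capitals, for the genes with the lowest p in GOF females among holders of a word, 1 each for origin licensing, helicase activation and the clamp group. No nucleotide supply gene with a listed promoter held a word.
Mcm3 (chr1:20820263-20820562, minus strand): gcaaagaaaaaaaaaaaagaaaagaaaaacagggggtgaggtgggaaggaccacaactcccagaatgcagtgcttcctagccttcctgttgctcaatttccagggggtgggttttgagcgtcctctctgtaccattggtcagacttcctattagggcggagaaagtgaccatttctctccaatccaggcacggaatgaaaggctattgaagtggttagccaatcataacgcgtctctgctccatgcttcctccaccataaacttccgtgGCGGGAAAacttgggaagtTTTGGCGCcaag
Gins3 (chr8:95633309-95633608, plus strand): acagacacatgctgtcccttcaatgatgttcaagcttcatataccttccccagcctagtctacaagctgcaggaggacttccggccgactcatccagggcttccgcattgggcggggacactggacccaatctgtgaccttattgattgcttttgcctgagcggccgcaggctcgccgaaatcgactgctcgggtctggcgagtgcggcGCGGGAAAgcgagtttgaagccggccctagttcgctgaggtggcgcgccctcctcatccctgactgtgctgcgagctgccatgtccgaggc
Rfc3 (chr5:151651159-151651458, minus strand): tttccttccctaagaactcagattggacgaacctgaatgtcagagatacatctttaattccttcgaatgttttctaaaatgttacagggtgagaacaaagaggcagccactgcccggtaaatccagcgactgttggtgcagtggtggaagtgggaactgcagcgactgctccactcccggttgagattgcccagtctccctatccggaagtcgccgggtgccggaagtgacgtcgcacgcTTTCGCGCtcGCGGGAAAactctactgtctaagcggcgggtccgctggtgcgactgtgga
With the start site counted as 1, the words began at 20 and 39 in Mcm3, at -41 in Gins3, and at -10 and 1 in Rfc3. Each of the 3 promoters held TTTCCCGC on the reverse strand, and Mcm3 and Rfc3 held a forward word as well (TTTGGCGC and TTTCGCGC). Each word in the 3 printed promoters lay within 50 bases of the start site.

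In GOF females the replication genes rose almost as a block, and in GOF males few of them did. Summed over the 41 genes, RNA reached 725, 998, 954 and 958 CPM in female controls 1 to 4 and 1164, 1900, 1784 and 2144 CPM in female GOF 1 to 4. The sums were 524, 637, 699 and 640 CPM in male controls 1 to 4 and 621.5, 761.5, 699.2 and 645.7 CPM in male GOF 1 to 4. Every female GOF library lay above every female control, while the sums of the male groups overlapped. Group means were 909 ± 124 and 1748 ± 417 CPM in control and GOF females, and 625 ± 73.1 and 682 ± 62.2 CPM in control and GOF males (SD, n = 4).

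**Figure D1:**
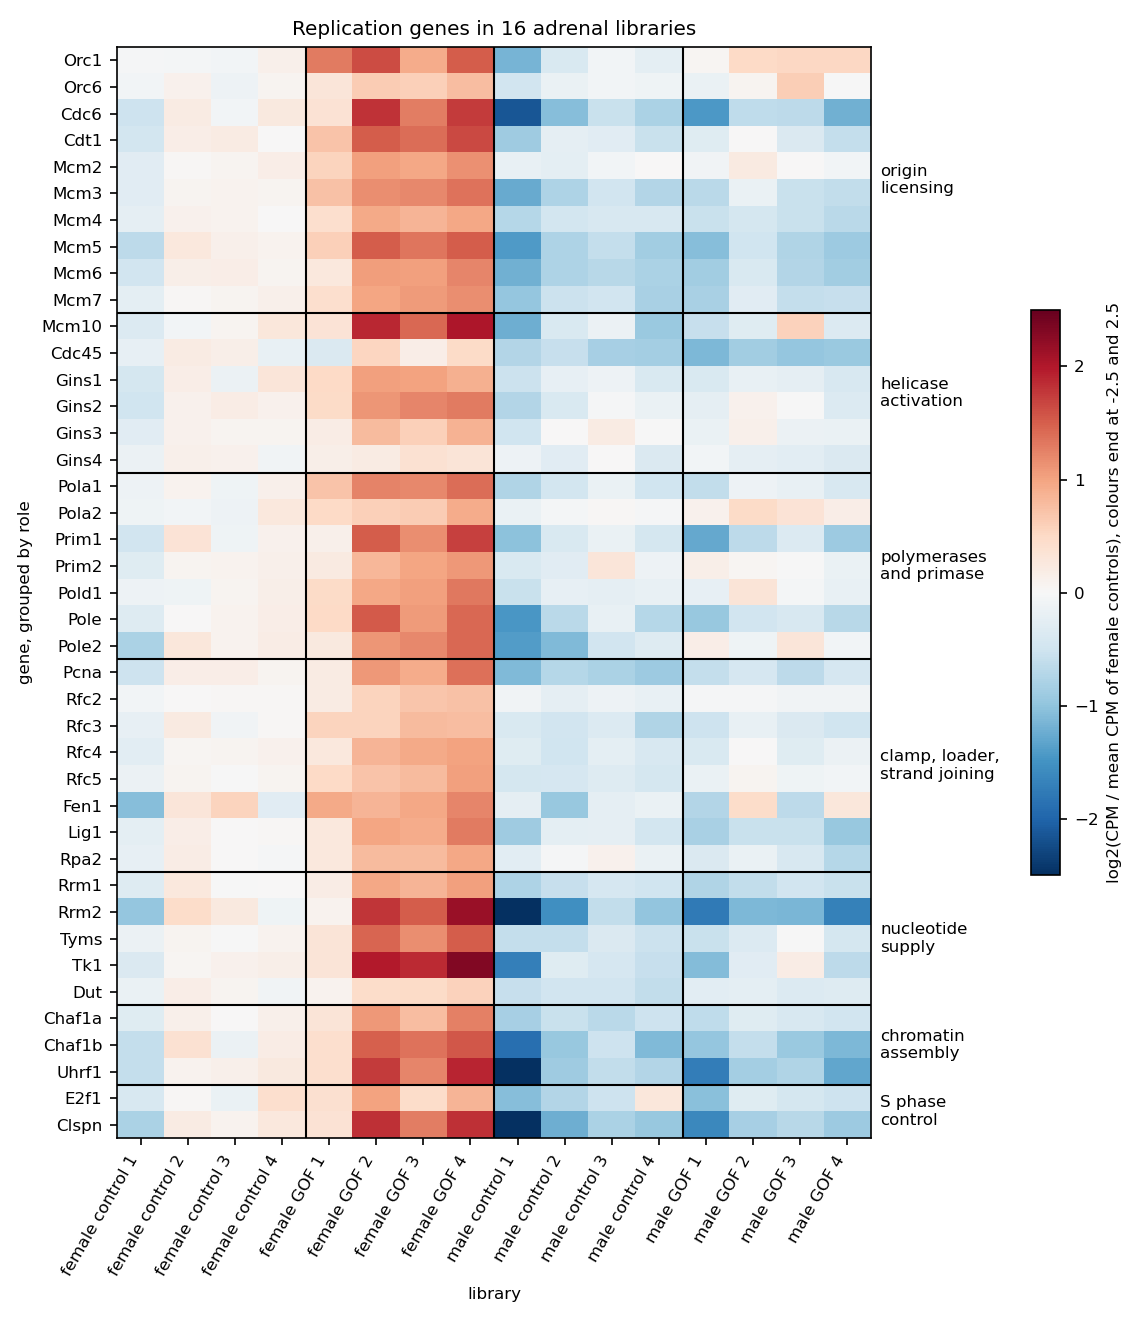
Level of each of the 41 genes (rows, grouped by role) in each of the 16 libraries (columns), as the log2 of CPM divided by the mean CPM of the 4 female controls. Red stands for above that mean and blue for below it; the 4 female GOF columns are red for nearly all genes, palest in female GOF 1, and both male groups are mostly blue.

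Genes were called where the quasi-likelihood test of edgeR gave a p under 0.05 after Benjamini-Hochberg adjustment over all 18214 genes. On this rule 40 of the 41 genes were higher in female GOF than in female control. Of all genes tested, 19.0% were called higher and 20.6% lower in this contrast. Here and below, shares of all genes called refer to this rule, and none is given at an unadjusted p. None of the 41 was called lower (0 at an unadjusted p under 0.05, and 0 in DESeq2), and only Cdc45 was not called in either direction. The median log2 fold change of the 41 genes was 0.94, from 0.25 for Cdc45 to 1.79 for Tk1, against 0.05 for all genes. For 34 of them every GOF library was above every control, which held for 17.4% of all genes in that direction. The 7 whose libraries overlapped were Cdc45, Prim1, Pole2, Rrm1, Rrm2, Dut and E2f1. Without the 3 libraries that held RNA of other organs, which leaves 2 female controls, 26 of the 41 were called higher and 0 lower, against 8.84% of all genes higher. Calls lost were those of Cdc6, Chaf1b, Clspn, Dut, E2f1, Fen1, Gins1, Gins3, Gins4, Orc6, Pole2, Prim1, Rrm2 and Uhrf1. In that fit 37 of the 41 had an unadjusted p under 0.05.

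In males 4 of the 41 genes were higher in GOF than in control (Orc1, Pola2, Pole2 and Rfc5) and 0 lower, where 15.2% of all genes tested were called higher and 21.8% lower. At an unadjusted p under 0.05 there were 6 higher and 0 lower, and DESeq2 called 5 higher and 0 lower. The median log2 fold change was 0.14, from -0.31 for Rpa2 to 0.85 for Pole2, against 0.0071 for all genes, and 30 of the 41 values were positive. Libraries of the 2 male groups did not overlap for 7 genes that were higher in GOF (Orc1, Pola2, Pole2, Pcna, Rfc2, Rfc5 and Dut), against 14.0% of all genes in that direction. They also did not overlap for 1 gene that was lower (Cdc45), a direction for which no share of all genes is given. The male count was small enough to turn on single libraries: it was 1 without male GOF 2, 2 without female GOF 2, female GOF 3, male control 1, male control 2 or male GOF 3, and 5 without female GOF 1. The share of all genes called higher in males was between 10.3% and 14.6% in the 16 fits without 1 library. Without the 3 libraries with RNA of other organs it was 0 in edgeR, where 8.94% of all genes were called higher, with 5 of the 41 higher at an unadjusted p under 0.05.

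**Figure D2:**
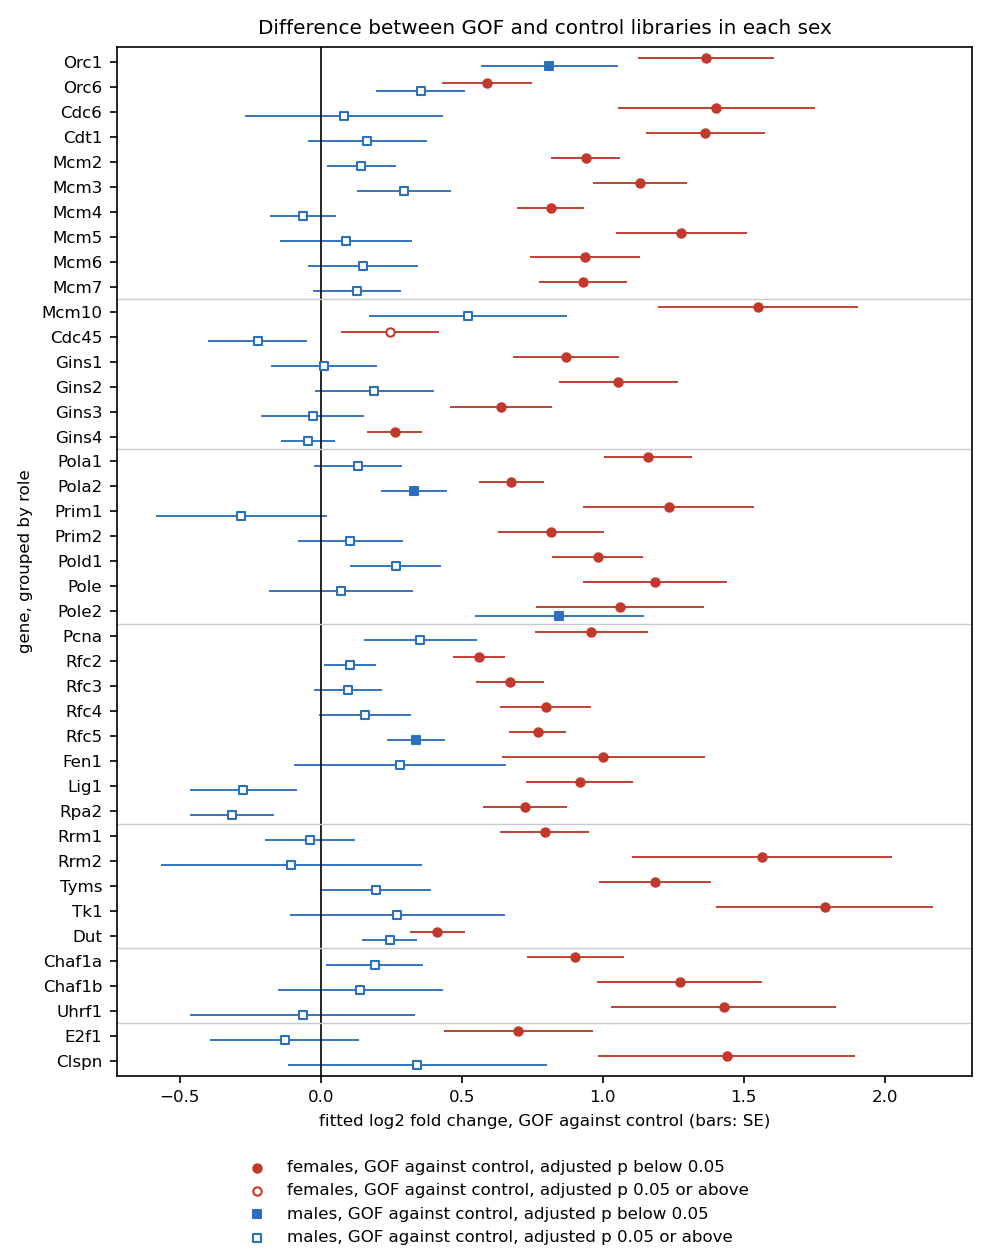
Fitted log2 fold change of GOF against control for each of the 41 genes (rows, grouped by role), with circles for females, squares for males and bars for the SE; filled symbols passed the adjusted p of 0.05. The female symbols lie between 0.25 and 1.79 and all but Cdc45 are filled, while the male symbols lie between -0.31 and 0.85 and 4 are filled.

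Within origin licensing, all 10 genes rose in GOF females, with a median log2 fold change of 1.03, and 1 rose in GOF males. Mcm2, Mcm4 and Mcm7 encode subunits of the helicase ring. Mcm2 (chromosome 6, 88883474 to 88898780) stood at 45.7, 57.01, 58.7 and 62.4 CPM in female controls 1 to 4 and at 82.6, 114, 109 and 124 CPM in female GOF 1 to 4. Its male values were 49.2, 47.05, 53.05 and 56.7 CPM in controls and 52.3, 65.3, 56.6 and 53.4 CPM in GOF. Every GOF female was above every other library, and the male groups overlapped. The log2 fold change of Mcm2 was 0.94 ± 0.12 in females (SE; edgeR adjusted p 4.28e-05), the lowest p of the licensing genes, and 0.14 ± 0.12 in males (adjusted p 0.378). Mcm4 (chromosome 16, 15623897 to 15637400) had 28.5, 36.3, 35.6 and 33.8 CPM in female controls and 44.97, 64.4, 60.9 and 65.9 CPM in female GOF. In male controls it had 20.4, 24.3, 25.4 and 25.3 CPM and in male GOF 22.9, 24.6, 22.7 and 21.1 CPM. Male GOF libraries lay among the male controls, and both male groups were below all female controls. Mcm4 thus changed by 0.82 ± 0.12 in females (edgeR adjusted p 9.3e-05) and by -0.062 ± 0.12 in males (adjusted p 0.717). Mcm7 (chromosome 5, 138164583 to 138172422), the licensing gene with the highest level per length at a mean of 52.9 FPKM (fragments per kilobase and per 1e6 fragments, the authors' values), had 45.5, 54.9, 56.1 and 58.3 CPM in female controls and 72.3, 106, 112 and 119.5 CPM in female GOF. The male values of Mcm7 were 27.3, 36.9, 38.7 and 30.8 CPM in controls and 30.4, 44.2, 35.8 and 35.9 CPM in GOF. Here too the female groups were apart and the male groups overlapped, with log2 fold changes of 0.93 ± 0.16 (edgeR adjusted p 0.000321) and 0.13 ± 0.16 (adjusted p 0.55).

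Orc1 encodes the largest subunit of the origin recognition complex. Orc1 (chromosome 4, 108579423 to 108614833) was a low transcript, at 1.08, 1.06, 1.05 and 1.20 CPM in female controls and 2.72, 3.39, 2.09 and 3.15 CPM in female GOF. Male controls had 0.492, 0.849, 1.05 and 0.924 CPM of Orc1 and male GOF 1.14, 1.54, 1.58 and 1.57 CPM. GOF libraries were above the controls of their own sex in every case. It rose in both sexes, by 1.37 ± 0.24 in females (edgeR adjusted p 0.000456) and by 0.81 ± 0.24 in males (adjusted p 0.0168), although 16 to 148 counts per library carry these values. On the opposite strand a noncoding gene, Gm12743, covers 63.3% of the length of Orc1, so reads of both may not have been told apart. Cdt1 (chromosome 8, 122568015 to 122573554), the loading factor that geminin holds in check, had 8.95, 13.8, 14.1 and 12.4 CPM in female controls and 20.1, 35.2, 32.3 and 38.7 CPM in female GOF. Its levels were 6.65, 10.6, 10.1 and 8.29 CPM in male controls and 9.91, 12.3, 9.62 and 8.16 CPM in male GOF. Female GOF 1 had the lowest Cdt1 of its group and was still above all other groups, and the male groups overlapped. The changes of Cdt1 were 1.36 ± 0.21 in females (edgeR adjusted p 0.000174) and 0.17 ± 0.21 in males (adjusted p 0.572). The annotation places a readthrough gene, Gm20388, over the whole of Cdt1 on the same strand, and how reads shared by both were counted is not given in the sources used here. The other licensing genes, Orc6, Cdc6, Mcm3, Mcm5 and Mcm6, were all called higher in GOF females, with log2 fold changes from 0.59 (Orc6) to 1.40 (Cdc6, the ATPase that loads MCM with CDT1). In males they ranged from 0.082 (Cdc6) to 0.35 (Orc6), and none was called.

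**Figure D3:**
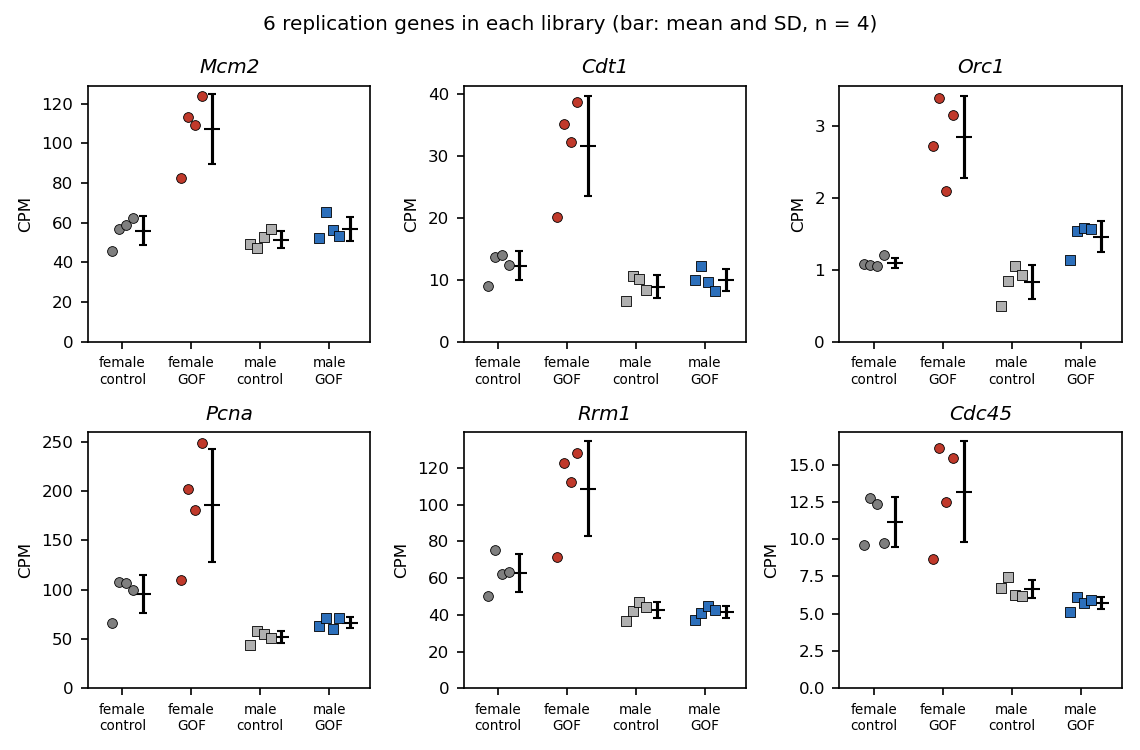
CPM of Mcm2, Cdt1, Orc1, Pcna, Rrm1 and Cdc45 in each library of the 4 groups (points), with the mean and SD of the group (n = 4). GOF females stand above the other groups for the first 3 genes, Orc1 is also higher in GOF than in control males, and Cdc45 of GOF females (8.68 to 16.1 CPM) overlaps that of female controls (9.62 to 12.8 CPM).

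Of the 6 genes of helicase activation, 5 rose in GOF females (median 0.75) and none was called in males (median -0.0082; 0 at an unadjusted p under 0.05). Cdc45 (chromosome 16, 18780447 to 18811987), which joins MCM and GINS to form the running helicase, was the 1 replication gene not called in GOF females. It had 9.62, 12.8, 12.4 and 9.74 CPM in female controls and 8.68, 16.1, 12.5 and 15.5 CPM in female GOF. Male controls had 6.74, 7.49, 6.28 and 6.17 CPM of Cdc45 and male GOF 5.14, 6.12, 5.71 and 5.89 CPM. Female GOF 1 was below all 4 female controls, and the male GOF libraries were all below the male controls. Its log2 fold changes were 0.25 ± 0.17 in females (edgeR adjusted p 0.278) and -0.22 ± 0.18 in males (adjusted p 0.339). The 4 Gins genes encode the subunits of GINS. Gins2 (chromosome 8, 120578633 to 120589304) had 4.37, 6.68, 7.02 and 6.66 CPM in female controls and 8.60, 13.3, 14.3 and 15.2 CPM in female GOF. Gins2 of males was 3.72, 4.77, 6.06 and 5.55 CPM in controls and 5.30, 6.63, 6.11 and 4.89 CPM in GOF. Females parted by group and males did not, at 1.06 ± 0.21 (edgeR adjusted p 0.0012) and 0.19 ± 0.21 (adjusted p 0.509); Gins2 lies within the readthrough gene Gm20388 on the opposite strand. Gins1 (chromosome 2, 150905400 to 150931280) had 2.37, 3.62, 2.92 and 3.96 CPM in female controls and 4.53, 6.55, 6.45 and 5.97 CPM in female GOF. In males Gins1 had 2.21, 2.78, 2.94 and 2.47 CPM in controls and 2.46, 2.83, 2.75 and 2.45 CPM in GOF. It changed by 0.87 ± 0.19 in females (edgeR adjusted p 0.00215), with no overlap, and by 0.013 ± 0.19 in males (adjusted p 0.967).

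Gins4 (chromosome 8, 23226616 to 23237659) had the highest level per length of the helicase activation genes (mean 23.1 FPKM) and the smallest change among the genes called in females. Its values were 28.7, 34.5, 34.05 and 29.8 CPM in female controls, 35.3, 36.4, 41.1 and 39.5 CPM in female GOF, 29.3, 26.1, 31.9 and 24.7 CPM in male controls and 30.3, 27.2, 26.4 and 24.6 CPM in male GOF. Female GOF libraries were above the female controls by a small margin, and male GOF lay among the male controls or just below them. The log2 fold changes were 0.26 ± 0.10 (edgeR adjusted p 0.0421) and -0.045 ± 0.10 (adjusted p 0.753). That female call was lost in 9 of the 16 fits that left out 1 library (without female control 1 or 4, female GOF 2, 3 or 4, or any male GOF library), with adjusted p from 0.0353 to 0.188. Mcm10, a helicase cofactor, rose by 1.55 and Gins3 by 0.64 in GOF females, against 0.52 and -0.029 in males, neither of which passed.

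All 7 genes of the polymerases and primase rose in GOF females (median 1.06), and Pola2 and Pole2 rose in GOF males as well. Pola1 (chromosome X, 93304767 to 93632155) encodes the catalytic subunit of DNA polymerase alpha and is the member on the X chromosome. It had 15.2, 17.8, 15.5 and 18.4 CPM in female controls and 27.4, 39.7, 38.4 and 44.2 CPM in female GOF. Male levels of Pola1 were 10, 12.2, 14.9 and 11.9 CPM in controls and 10.9, 15.4, 14.8 and 12.6 CPM in GOF. The female groups were well apart and the male groups overlapped. Pola1 changed by 1.16 ± 0.16 in females (edgeR adjusted p 5.66e-05), the lowest p of its role, and by 0.13 ± 0.16 in males (adjusted p 0.542). Pola2 (chromosome 19, 5940542 to 5964202), the second subunit of the same polymerase, had 17.6, 18.04, 17.4 and 22.9 CPM in female controls and 26.8, 28.8, 29.7 and 36.02 CPM in female GOF. For males the levels of Pola2 were 17.01, 18.5, 19.4 and 18.5 CPM in controls and 20.6, 26.6, 23.9 and 21.2 CPM in GOF. In each sex the GOF libraries were above the controls. The changes of Pola2 were 0.68 ± 0.12 in females (edgeR adjusted p 0.000384) and 0.33 ± 0.12 in males (adjusted p 0.0364); the male call was lost in 7 of 16 fits without 1 library (female GOF 2 or 3, male control 1, 2 or 4, male GOF 2 or 3), with adjusted p from 0.023 to 0.135.

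Pole2 (chromosome 12, 69201773 to 69228195), the second subunit of the leading-strand polymerase epsilon, had 1.94, 4.07, 3.57 and 3.79 CPM in female controls and 3.98, 7.19, 7.71 and 9.01 CPM in female GOF. Male controls stood at 1.26, 1.55, 2.41 and 2.67 CPM of Pole2 and male GOF at 3.76, 3.12, 4.11 and 3.20 CPM. The lowest female GOF library, female GOF 1, lay within the range of the female controls, and the male groups did not overlap. Its log2 fold changes were 1.06 ± 0.30 in females (edgeR adjusted p 0.011) and 0.85 ± 0.30 in males (adjusted p 0.0382), the latter lost in 8 of 16 fits without 1 library (female GOF 2 or 3, male control 1 or 2, or any male GOF library; adjusted p 0.0244 to 0.102). Pold1 (chromosome 7, 44532746 to 44548849), the catalytic subunit of the lagging-strand polymerase delta, had 16.4, 16.6, 18.8 and 19.9 CPM in female controls and 25.1, 35.3, 36.5 and 44.8 CPM in female GOF. Pold1 of males stood at 12.2, 15.7, 15.4 and 15.7 CPM in controls and 15.6, 22.4, 17.2 and 15.8 CPM in GOF. The female groups were apart, and 3 male GOF libraries exceeded all male controls, 1 of them by little. Pold1, at 13.1 FPKM the highest of its role per length, changed by 0.98 ± 0.16 in females (edgeR adjusted p 0.000267) and by 0.27 ± 0.16 in males (adjusted p 0.209). Prim1 and Prim2, the subunits of primase, rose by 1.23 and 0.82 in GOF females and had values of -0.28 and 0.11 in males; Pole, the catalytic subunit of polymerase epsilon, rose by 1.19 against 0.071.

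The 8 genes of the clamp, its loader and strand joining all rose in GOF females (median 0.78), and Rfc5 rose in males. Pcna (chromosome 2, 132249162 to 132253314), the sliding clamp and the most abundant of the 41 transcripts per length (mean 111 FPKM), had 66.7, 108, 107 and 99.98 CPM in female controls and 110.2, 202, 180.5 and 249 CPM in female GOF. Males had 44.1, 58.5, 54.8 and 50.7 CPM of Pcna in controls and 63.2, 71.1, 60.2 and 71.1 CPM in GOF. The groups did not overlap in either sex, although female GOF 1, at 110.2 CPM, was only just above the highest female control at 107.6. Pcna changed by 0.96 ± 0.20 in females (edgeR adjusted p 0.00173) and by 0.35 ± 0.20 in males (adjusted p 0.181), which did not pass. Rfc5 (chromosome 5, 117378103 to 117389047), a small subunit of the clamp loader, had 16.1, 18.6, 17.8 and 18.7 CPM in female controls and 25.2, 29.1, 30.97 and 36.1 CPM in female GOF. Rfc5 stood at 13.1, 13.4, 14.3 and 13.2 CPM in male controls and 15.8, 18.8, 16.6 and 16.9 CPM in male GOF. With no overlap in either sex, the changes were 0.77 ± 0.10 in females (edgeR adjusted p 4.77e-05) and 0.34 ± 0.10 in males (adjusted p 0.0178); without male GOF 2 the male value had an adjusted p of 0.065.

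Rpa2 (chromosome 4, 132768332 to 132778752), a subunit of the protein that coats single-stranded DNA, had 15.8, 20.7, 18.4 and 17.9 CPM in female controls and 21.9, 31.3, 31.4 and 35.6 CPM in female GOF. Its male levels were 15.1, 17.8, 19.5 and 16.3 CPM in controls and 14.1, 16.2, 13.9 and 11.1 CPM in GOF. All GOF females were above the female controls, and 3 of the 4 GOF males were below the lowest male control. The fitted values were 0.72 ± 0.15 in females (edgeR adjusted p 0.0015) and -0.31 ± 0.15 in males (adjusted p 0.111). Lig1 (chromosome 7, 13277283 to 13311433), the ligase that joins Okazaki fragments, had 21.7, 28.7, 25.9 and 26.04 CPM in female controls and 30.9, 50.96, 48.5 and 63.04 CPM in female GOF. Levels of Lig1 in males were 13.8, 21.6, 21.8 and 18.6 CPM in controls and 14.5, 17.4, 17.4 and 13.3 CPM in GOF. Again the female groups were apart and the male GOF libraries lay in the lower part of the male control range or just below it. Lig1 changed by 0.92 ± 0.19 in females (edgeR adjusted p 0.00156) and by -0.27 ± 0.19 in males (adjusted p 0.277). The other clamp loader genes Rfc2, Rfc3 and Rfc4 rose by 0.56, 0.67 and 0.80 in GOF females, with male values of 0.11, 0.10 and 0.16. Fen1, the flap nuclease, was called at 1.001 ± 0.36 in females (edgeR adjusted p 0.0383) on a mean of 0.209 FPKM; 64.6% of its length lies under an antisense gene, so its reads may not all have been assigned to it. The female call of Fen1 was lost in 7 of 16 fits without 1 library (female control 1 or 4, any female GOF library, or male GOF 4; edgeR adjusted p up to 0.109).

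Nucleotide supply held both the largest and some of the smallest changes. All 5 genes rose in GOF females (median 1.19), and none was called in males (median 0.19). Tk1, thymidine kinase, rose by 1.79 ± 0.39 (edgeR adjusted p 0.0022) and Rrm2, the S phase subunit of ribonucleotide reductase, by 1.56 ± 0.46 (adjusted p 0.0152). Both varied among GOF females, Tk1 from 16.8 to 66.6 CPM and Rrm2 from 26.4 to 110.8 CPM, with female GOF 1 lowest in each, and the call of Rrm2 was lost without female GOF 4 (adjusted p 0.0614); in males their values were 0.27 and -0.10. Tyms (chromosome 5, 30058202 to 30073617), thymidylate synthase, had 12.3, 14.2, 13.4 and 14.5 CPM in female controls and 17.1, 37.1, 30.6 and 38.9 CPM in female GOF. For Tyms the male values were 9.02, 9.01, 10.5 and 9.35 CPM in controls and 9.25, 10.7, 13.4 and 10.03 CPM in GOF. The female groups were apart, and Tyms changed by 1.19 ± 0.20 in females (edgeR adjusted p 0.000313) and 0.19 ± 0.20 in males (adjusted p 0.47). Rrm1 (chromosome 7, 102441695 to 102469771), the large subunit of ribonucleotide reductase, had 50.04, 75.4, 62.2 and 63.3 CPM in female controls and 71.6, 123, 112 and 128 CPM in female GOF. In male controls Rrm1 stood at 36.7, 42.2, 46.9 and 44.4 CPM and in male GOF at 37.03, 41.2, 45.1 and 42.6 CPM. Female GOF 1 lay below female control 2, the other 3 GOF females were far above, and the male groups overlapped. The changes of Rrm1 were 0.79 ± 0.16 (edgeR adjusted p 0.0012) and -0.037 ± 0.16 (adjusted p 0.878).

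Dut (chromosome 2, 125247190 to 125258608), the enzyme that keeps uracil out of DNA and the nucleotide supply gene with the highest level per length (37.8 FPKM), had 37.6, 47.7, 44.3 and 39.7 CPM in female controls and 45.1, 57.9, 59.1 and 63.1 CPM in female GOF. Dut reached 28.2, 30.5, 30.5 and 27.6 CPM in male controls and 35.4, 35.8, 33.3 and 33.9 CPM in male GOF. Female GOF 1 overlapped the female controls, and the male groups were apart. Dut changed by 0.41 ± 0.10 in females (edgeR adjusted p 0.00376) and by 0.24 ± 0.10 in males (adjusted p 0.0612, not passing), the nearest pair of values between the sexes among the 41 genes.

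Chromatin assembly and methylation upkeep follow the fork, and its 3 genes rose in GOF females (median 1.27). None of the 3 was called in males, and the interaction passed for none (edgeR adjusted p 0.114 for Chaf1a, 0.136 for Chaf1b and 0.152 for Uhrf1). Chaf1a (chromosome 17, 56040439 to 56072289), the large subunit of chromatin assembly factor 1, had 9.16, 12.2, 11.3 and 12.3 CPM in female controls and 14.1, 23.8, 19.1 and 26.99 CPM in female GOF. Chaf1a in males stood at 6.31, 7.67, 7.08 and 7.80 CPM in controls and 7.24, 9.12, 8.54 and 8.06 CPM in GOF. Its groups parted in females and overlapped in males, with changes of 0.90 ± 0.17 (edgeR adjusted p 0.000862) and 0.19 ± 0.17 (adjusted p 0.409). Uhrf1 (chromosome 17, 56303321 to 56323486), which brings the maintenance DNA methyltransferase to newly copied DNA, had 11, 17.8, 18.1 and 19.6 CPM in female controls and 22.2, 55.7, 38.9 and 61.96 CPM in female GOF. The male levels of Uhrf1 were 2.46, 8.95, 10.8 and 10.1 CPM in controls and 5.01, 9.26, 9.84 and 6.80 CPM in GOF. Uhrf1 spanned a wide range in both GOF females and male controls, lowest in female GOF 1 and male control 1. It changed by 1.43 ± 0.40 in females (edgeR adjusted p 0.0112) and by -0.064 ± 0.40 in males (adjusted p 0.92). Chaf1b, the middle subunit of the assembly factor, rose by 1.27 in females, with 0.14 in males.

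E2f1 and Clspn make up S phase control, and both calls in females lay near the threshold. E2f1 (chromosome 2, 154559407 to 154569892), a transcription factor that switches on many of the genes above, had 13.8, 18.6, 16.3 and 24.6 CPM in female controls and 24.3, 36.6, 25.2 and 33.05 CPM in female GOF. E2f1 in males was 8.71, 11, 12.8 and 22.2 CPM in controls and 8.93, 14.9, 13.6 and 12.8 CPM in GOF. Female control 4 reached the level of the lower GOF females, and male control 4 stood well above the other males. The changes were 0.70 ± 0.26 in females (edgeR adjusted p 0.0467) and -0.13 ± 0.26 in males (adjusted p 0.741), and the female call was lost in 11 of 16 fits without 1 library (all but female control 4, female GOF 1 and male controls 1, 2 and 4; adjusted p 0.0155 to 0.152). Clspn (chromosome 4, 126556935 to 126593903) encodes claspin, which carries the replication checkpoint signal to its kinase. It had 4.58, 9.13, 8.34 and 9.51 CPM in female controls and 10.2, 28.1, 19.2 and 28.1 CPM in female GOF. Male values of Clspn were 0.646, 3.37, 4.58 and 4.11 CPM in controls and 2.60, 4.43, 4.86 and 4.23 CPM in GOF. Claspin RNA was lowest in library 1 of every group. It changed by 1.44 ± 0.46 in females (edgeR adjusted p 0.0216; up to 0.07 and not passing without female control 1, female GOF 2 or female GOF 4) and by 0.34 ± 0.46 in males (adjusted p 0.594).

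Within a group, the same libraries were lowest or highest for most of the genes. Female GOF 1 was the lowest of its group for 39 of the 41 genes and female control 1 for 38, and female GOF 4 was the highest of its group for 33. Male control 1 was lowest for 32 genes and male GOF 1 for 28. In every group library 1 came from a mouse numbered in the first range. So did male control 3 and male GOF 2, the highest of their groups for 30 and 26 genes. Within the first range the 41 genes summed to 1164 CPM in the 1 GOF female against 725 CPM in the 1 control female, a ratio of 1.61 with 40 of 41 genes higher. That control female was female control 1, the library with 939 CPM of kidney tubule genes. Within the second range the sums were 1842 CPM in 2 GOF females and 970 CPM in 3 controls, a ratio of 1.90 with all 41 genes higher. For males the ratios were 1.12 within the first range and 1.05 within the fourth, with 35 and 26 of 41 genes higher. Male control 2, with RNA of liver, was among the male controls of the first range. With the range as a term of the edgeR model, 39 of 41 genes were called higher in GOF females, against 16.3% of all genes, and 6 in GOF males, against 13.1% of all genes.

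**Figure D4:**
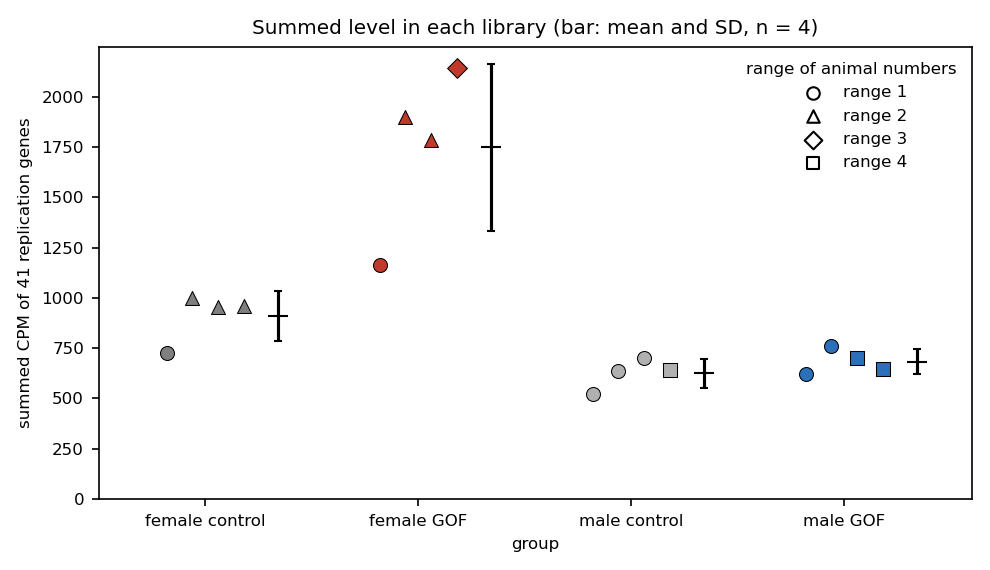
Summed CPM of the 41 replication genes in each library, by group, with the mean and SD of the group (n = 4); the shape of a point gives the range of animal numbers it belongs to. All 4 female GOF points lie above the female controls, and in both female groups the point of the first range (range 1) is the lowest.

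Between the sexes, all 41 genes had a lower fitted level in male than in female controls, and 15 passed the test: Cdc45, Cdc6, Chaf1a, Chaf1b, Dut, Mcm3, Mcm4, Mcm5, Mcm6, Mcm7, Pcna, Pola1, Rfc3, Rfc5 and Rrm1. They included 5 of the 6 subunits of the MCM ring, and Mcm2 was at -0.12 ± 0.12 (edgeR adjusted p 0.512). Of all genes tested 9.89% were called lower in male controls and 13.5% higher. None of the 41 was called higher (0 at an unadjusted p under 0.05, and 0 in DESeq2), 24 had an unadjusted p under 0.05 and were lower, and the median was -0.48 against 0.08 for all genes. For 18 genes every male control was below every female control, against 10.9% of all genes. Pcna, at 95.3 ± 19.4 CPM in female and 52 ± 6.16 CPM in male controls (SD, n = 4), differed by -0.87 ± 0.20 (edgeR adjusted p 0.00655), and Mcm7 by -0.68 ± 0.16 (adjusted p 0.00618). The largest differences, in Clspn (-1.31 ± 0.46, adjusted p 0.0523) and Rrm2 (-1.29 ± 0.46, adjusted p 0.0572), missed the threshold. This sex difference in controls could hardly be separated from the animal numbers, because the other ranges held females only or males only. Mice of both sexes were found only in the first range, with 3 male controls and 1 female control. Within it the sums were 620 CPM in males and 725 CPM in the female, a ratio of 0.855 with 32 of 41 genes lower, and with the range in the edgeR model 0 of 41 genes were called, 3 were lower at an unadjusted p under 0.05, and the median was -0.17. In that fit calls also fell over all genes, from 4267 to 1311, with 3.74% of genes called lower. Since the sexes met only in the first range, the lost calls cannot tell an effect of the range from a lack of mice to compare. Without the 3 libraries with RNA of other organs, 12 genes were called lower, against 4.82% of all genes. Of the 15 calls, 4 did not hold in every fit without 1 library. That of Cdc6 was lost in 10 of 16 such fits (female control 2, 3 or 4, female GOF 3 or 4, male control 1, 2 or 4, or male GOF 3 or 4; edgeR adjusted p up to 0.103) and that of Pola1 in 9 (any female control, female GOF 3, male control 1, 2 or 4, or male GOF 4; adjusted p up to 0.114). The call of Chaf1b was lost without female control 2 or 4 (adjusted p up to 0.0632) and that of Rrm1 without female control 2 (adjusted p 0.0661).

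In GOF adrenals the gap between the sexes was wider. Male GOF was lower than female GOF for 40 of the 41 genes (all but Orc6, at -0.43 ± 0.16 with an edgeR adjusted p of 0.0517) and higher for 0 (0 at an unadjusted p under 0.05, and 0 in DESeq2), where 16.3% of all genes tested were called lower and 13.3% higher. The median log2 difference was -1.35, from -2.96 for Rrm2 to -0.39 for Pola2, against 0.03 for all genes. All male GOF libraries were below all female GOF libraries for 38 genes, against 15.7% of all genes; Orc6, Mcm10 and Pole2 were the exceptions. Rrm2 was 73.3 ± 35.4 CPM in female and 9.42 ± 2.23 CPM in male GOF (SD, n = 4), 7.78-fold lower by the fit (edgeR adjusted p 0.000478). Uhrf1 was 5.78-fold lower (adjusted p 0.000455), Clspn 5.31-fold (adjusted p 0.00156), Cdc6 5.07-fold (adjusted p 0.000259) and Mcm4 2.59-fold (adjusted p 2.37e-06). Within the first range, 2 GOF males summed to 692 CPM and the 1 GOF female to 1164 CPM, a ratio of 0.594 with all 41 genes lower in males. With the range in the model 22 of 41 genes were called lower, at a median of -0.90, while calls of lower genes fell from 16.3% to 3.99% of all genes. Here too the sexes met only in the first range, so this loss of calls has the same limit as in controls. In the fit without the 3 libraries with RNA of other organs 40 of 41 were called lower, against 2832 of all 18935 genes tested there. The calls of Pola2 and Pole2 were also lost without female GOF 4 or male GOF 4 (Pola2 also without male GOF 1, Pole2 also without female GOF 3 or male GOF 2), and that of Fen1 without any one female GOF library, male GOF 1 or male GOF 3.

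The difference between the sexes in the GOF effect was tested by the interaction, in which a negative value means that the log2 fold change with GOF was lower in males than in females. All 41 values were negative, with a median of -0.83 against -0.06 for all genes, and 7 genes passed: Mcm2, Mcm4 and Cdt1 of licensing, Pola1, Rpa2, Lig1 and Rrm1. Of all genes tested 2.61% were called with a negative and 1.59% with a positive interaction. None of the 41 was called positive (0 at an unadjusted p under 0.05, and 0 in DESeq2). An unadjusted p under 0.05 was found for 32, a threshold at which no share of all genes is given. Lig1 differed by -1.19 ± 0.27 (edgeR adjusted p 0.0238) and Cdt1 by -1.20 ± 0.30 (adjusted p 0.0357), so that the female fold change was 2.29 and 2.29 times the male one. Mcm4 differed by -0.88 ± 0.17 (edgeR adjusted p 0.00878), the lowest p of the 41. Rpa2 (-1.04 ± 0.21, adjusted p 0.0135), Pola1 (-1.03 ± 0.22, adjusted p 0.0183), Mcm2 (-0.80 ± 0.17, adjusted p 0.0198) and Rrm1 (-0.83 ± 0.22, adjusted p 0.0497) completed the 7. In contrast Dut (-0.17 ± 0.14, adjusted p 0.516), Pole2 (-0.22 ± 0.42, adjusted p 0.815) and Orc1 (-0.56 ± 0.34, adjusted p 0.373) did not pass, and larger values in Rrm2 (-1.67 ± 0.65, adjusted p 0.167) and Tk1 (-1.51 ± 0.54, adjusted p 0.128) did not pass either, on wide errors.

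The number of interaction calls depended on single libraries. It was 22 without female GOF 1, 13 without male control 1 and 11 without male GOF 2, but 4 without female control 3, female GOF 3 or male GOF 1, and 3 without female GOF 4 or male GOF 4. Negative calls over all genes moved too, to 3.14%, 3.24% and 2.97% in the first 3 of these fits and to between 1.05% and 1.54% in the others. Mcm4, Rpa2 and Pola1 were called in all 16 of those fits, while Mcm2 was lost in 2, Lig1 in 5, Cdt1 in 11 and Rrm1 in 13. Without the 3 libraries with RNA of other organs, 0 genes passed in edgeR and 19 had an unadjusted p under 0.05, all of them negative; over all genes, negative calls fell from 2.61% to 0.359%. DESeq2 called 16 on all libraries, against 4.44% of all genes.

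Genes of the same pathway outside the 41 were also examined. Of 46 other replication genes, 30 were higher and 0 lower in GOF females (median 0.47), and 6 were higher and 2 lower in GOF males (median 0.10). Over all genes 19.0% were called higher and 20.6% lower in females and 15.2% and 21.8% in males, so the share of higher genes in males was near that of all genes. Without the 3 libraries with RNA of other organs 19 were higher and 0 lower in females, and 4 higher and 1 lower in males. In that fit 8.84% of all genes were called higher and 15.2% lower in females, and 8.94% and 16.8% in males. Dtymk, thymidylate kinase, had 67.3, 80.6, 86.3 and 76.3 CPM in female controls and 114, 138, 151 and 143 CPM in female GOF. Dtymk of males had 78.6, 66.9, 74.3 and 75.1 CPM in controls and 93.1, 119.9, 97.1 and 109 CPM in GOF. GOF was above control in both sexes, by 0.82 ± 0.10 in females (edgeR adjusted p 3.15e-05) and 0.51 ± 0.10 in males (adjusted p 0.00133). In females Topbp1, a replication initiation and checkpoint protein, rose by 0.73 ± 0.093 (edgeR adjusted p 3.5e-05) and Atad5, which unloads the clamp, by 0.95 ± 0.13 (adjusted p 8.16e-05). In males Dnmt1, the maintenance methyltransferase, rose by 0.51 ± 0.11 (edgeR adjusted p 0.00202) and Orc3 by 0.24 ± 0.059 (adjusted p 0.00581). Timeless, a fork protection protein, went the other way in males. It had 18.3, 24.4, 20.01 and 23.2 CPM in female controls and 21.4, 27.6, 25.9 and 34.2 CPM in female GOF, but 20.1, 27.1, 24.1 and 25.2 CPM in male controls and 12.7, 14.9, 14.6 and 11.1 CPM in male GOF. All GOF males were below all other libraries, at -0.86 ± 0.15 (edgeR adjusted p 0.000403), and the interaction of Timeless was -1.20 ± 0.21 (adjusted p 0.00581). Rfc1, the large subunit of the clamp loader, fell by 0.22 in GOF males (edgeR adjusted p 0.0283), a call lost without male control 2 or 3 or male GOF 3 or 4 (adjusted p up to 0.0815). The lower values with the next lowest p did not pass: Pole4 in males at -0.25 (edgeR adjusted p 0.0656), and in females Rrm2b at -0.19 (0.108), Rnaseh2a at -0.18 (0.266) and Nme1 at -0.15 (0.469).

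Of 29 regulators of the G1/S transition, 19 were higher and 1 lower in GOF females (median 0.54), and 5 higher and 2 lower in GOF males (median 0.03), again near the share of all genes called higher in males. The counts were 13 higher and 1 lower in females, and 3 higher and 1 lower in males, without the 3 libraries with RNA of other organs. Of all genes in that fit, 8.84% were called higher and 15.2% lower in females, and 8.94% and 16.8% in males. The male share of higher genes was near that of all genes there too. Cdk2, the kinase that fires origins, had 32.3, 27.1, 28.2 and 34.1 CPM in female controls and 44.3, 54.5, 51.6 and 54.3 CPM in female GOF. Its levels in males were 23.4, 22.97, 29.4 and 30.9 CPM in controls and 39.4, 42.1, 40.99 and 36.3 CPM in GOF. It rose in both sexes, by 0.75 ± 0.11 in females (edgeR adjusted p 0.000105) and 0.57 ± 0.11 in males (adjusted p 0.000885). Among females E2f2 rose by 1.06 ± 0.16 (edgeR adjusted p 0.000109) and Atrip, partner of the checkpoint kinase ATR, by 0.54 ± 0.088 (adjusted p 0.000237), while Cdkn1b, the inhibitor p27, fell by 0.83 (adjusted p 0.00176). Among males E2f4 rose by 0.32 ± 0.062 (edgeR adjusted p 0.00112) and Myc by 0.75 ± 0.18 (adjusted p 0.00424). Cyclin E1, the partner of Cdk2, took opposite directions. Ccne1 had 4.15, 7.07, 6.43 and 5.11 CPM in female controls and 5.76, 15.1, 10.8 and 13.01 CPM in female GOF. Male controls had 2.95, 4.51, 4.61 and 5.52 CPM of Ccne1 and male GOF 1.30, 1.80, 2.25 and 1.57 CPM. It rose by 0.98 ± 0.28 in females (edgeR adjusted p 0.0137) and fell by 1.34 in males (adjusted p 0.00235), with an interaction of -2.32 ± 0.41 (adjusted p 0.00606); without female GOF 2 the female call was lost (adjusted p 0.0607). Cdkn1a, the inhibitor p21, fell by 0.80 in GOF males (edgeR adjusted p 0.0206), a call lost without male control 2 or male GOF 2 (adjusted p up to 0.0695). Rb1 (-0.18 in females and -0.36 in males) and Rbl2 (-0.10 in females), which restrain E2F, did not pass (edgeR adjusted p 0.409, 0.0937 and 0.435).

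**Figure D5:**
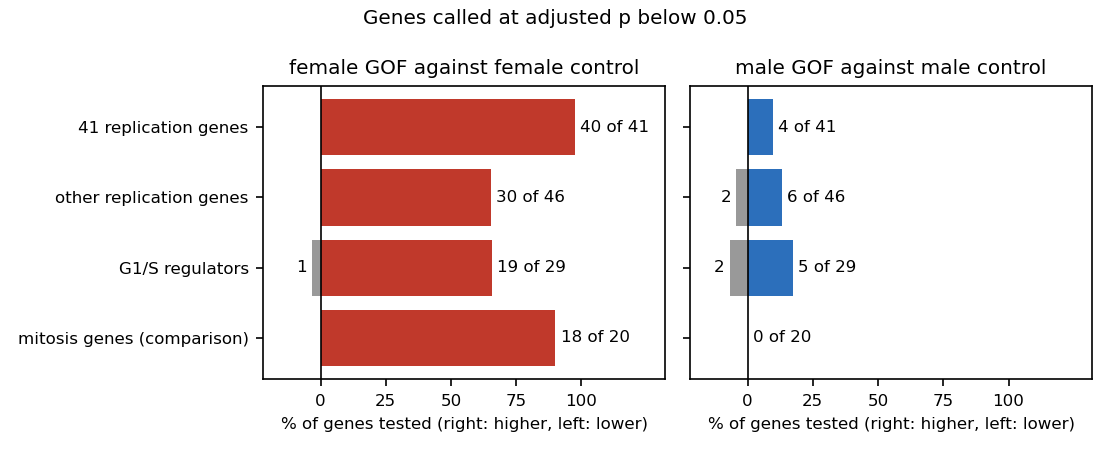
Share of genes called at an adjusted p under 0.05, higher (coloured, right) or lower (grey, left) in GOF, for the 41 replication genes and 3 lists around them, in females (left panel) and males (right panel). In females 40 of 41, 30 of 46, 19 of 29 and 18 of 20 were higher; in males 4, 6, 5 and 0.

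Other transcripts moved in the same comparisons. Of all genes, 19.0% were called higher and 20.6% lower in GOF females, and 15.2% and 21.8% in GOF males. Without the 3 libraries with RNA of other organs these shares were 8.84% and 15.2% in females and 8.94% and 16.8% in males. Of 20 mitosis genes, 18 were higher in GOF females (median 1.48) and 0 in GOF males (0 at an unadjusted p under 0.05 in edgeR, 0 calls in DESeq2), and all 20 were lower in GOF males than in GOF females; without the 3 libraries with RNA of other organs 0 mitosis genes were called in females, with 2 higher at an unadjusted p under 0.05. Of 14 erythroid genes, 6 were higher in GOF females and 0 lower, among them Hemgn, Gata1 and Klf1, and 1 was higher and 3 lower in males. These 3 named genes did not move together in males. Gata1 averaged 1.58 CPM in male control and 8.99 CPM in male GOF, against 0.52 and 0.49 CPM for Klf1 and 0.11 and 0.070 CPM for Hemgn. The abundant globin genes did not pass in females: Hbb-bs averaged 345 and 257 CPM and Hba-a1 283 and 192 CPM in female control and GOF (edgeR adjusted p 0.318 and 0.281). The sums of the 14 were 344 to 1015 CPM in female controls, 506 to 643 CPM in female GOF, 1107 to 2141 CPM in male controls and 410.0 to 782 CPM in male GOF, and no gene of the list was at 0 throughout a group. Klf1, an erythroid transcription factor chosen here after its values were seen, had 0.585 to 0.678 CPM in female controls and 0.568 to 4.06 CPM in female GOF, highest in female GOF 1. Its call was lost without female GOF 1 or any one female control (edgeR adjusted p up to 0.22). Of 10 macrophage genes 1 was higher and 1 lower in GOF females and 5 higher and 1 lower in GOF males (2 higher and 1 lower without the 3 libraries with RNA of other organs), at sums of 225 to 362, 305 to 687, 400 to 550 and 588 to 1741 CPM in female control, female GOF, male control and male GOF. The 3 X-zone genes, which mark a fetal remnant of the cortex present in young females, summed to 4918 to 7363 CPM in female controls and to 12.5 CPM or less in every library of the other groups. Akr1c18 and Pik3c2g carried that sum, while Pla2g4a averaged 6.34 CPM in female and 9.86 CPM in male controls and did not pass in GOF females (4.18 CPM; edgeR adjusted p 0.0505). The 8 medulla genes fell in both sexes, from at least 4775 CPM in every control to at most 883 CPM in every GOF library. Of 5 zona glomerulosa genes tested (of 6 listed) 2 were lower in GOF females and 4 in GOF males, at sums of 728 to 803 and 739 to 1191 CPM in female and male controls and 375.7 to 513 and 252 to 377.8 CPM in female and male GOF. Of 5 zona fasciculata genes 3 were lower in GOF females and 1 in GOF males, while the sums of the control and GOF libraries overlapped in both sexes (6965 to 11685 CPM in females and 7151 to 14364 CPM in males). Of 6 capsule genes 5 were lower in GOF females and 6 in GOF males, at sums of 635 to 721, 170.5 to 356, 913 to 2447 and 370.2 to 437 CPM in female control, female GOF, male control and male GOF. Of 7 adipocyte genes 6 were lower in GOF females and 7 in GOF males, at sums of 1790.2 to 2264 and 2318 to 4592 CPM in female and male controls and 468.5 to 917.5 and 368 to 468.2 CPM in female and male GOF. Of 7 endothelial genes 0 were called in GOF females (1 at an unadjusted p under 0.05 in edgeR) and 2 were higher in GOF males, and 6 were higher in male than in female GOF (844 to 1092 against 609.9 to 677 CPM in sum). Of 8 lymphocyte genes 0 were called in GOF females (1 at an unadjusted p under 0.05 in edgeR, 0 calls in DESeq2) and 1 was higher in GOF males, at sums of 12.3 to 27.1 CPM in females and 17.5 to 98.1 CPM in males. The part of these cells and transcripts in the level of the replication genes was not tested.

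The 41 genes rose and fell together across the 16 libraries, which share tissue and the 4 groups. Over the 820 pairs of genes, Pearson's r of log2 CPM had a median of 0.904 and a minimum of 0.401, and r was over 0.5 for 99.8% of pairs. Each gene was also set against the mean of the other 40: Mcm5 was closest to it (r = 0.99), and Fen1 (0.785), Pola2 (0.805), Cdc45 (0.821) and Gins4 (0.83) were the least like it. Outside the list, the 10 most similar of 15139 protein-coding genes included Lmnb1, Dek, Tacc3, Fignl1, Dscc1, Melk and Incenp, with r from 0.988 to 0.976 over the 16 libraries. Lmnb1, which encodes lamin B1 of the nuclear envelope, averaged 41.9, 106.3, 24.6 and 30.2 CPM in female control, female GOF, male control and male GOF. Across the 41 genes, the female and male log2 fold changes had an r of 0.267 and a rank correlation of 0.222, given as a description because genes are not independent replicates.

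Per length, the levels of the 41 genes spanned from 0.209 FPKM for Fen1 to 111 FPKM for Pcna as means over the 16 libraries. Next to Pcna were Mcm7 at 52.9 FPKM, Mcm2 at 51.04, Dut at 37.8, Mcm6 at 36.99 and Rrm1 at 34.5 FPKM. Toward the lower end were Chaf1a at 2.56, Orc1 at 1.57 and Cdc6 at 1.53 FPKM. Abundant subunits of the MCM ring thus stood well above the loaders CDC6 and ORC1 in RNA per length. Of the 41 genes, 21 overlap another annotated gene, 13 of them a protein-coding gene and 2 of these on the same strand. Tk1 lies wholly within a readthrough gene, as do Cdt1 and Gins2. Since the strand setting of the counting is not given in the sources used here, small levels in such genes are less certain than those of the rest.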

How the data were processed

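Bulk RNA sequencing libraries from adrenal glands of 16 mice were analysed, 4 in each of 4 groups set by the sample labels. Replicate numbers follow accession order and pair no samples. Per the labels' protocols, NEBNext Ultra libraries were made from total RNA past an integrity cut-off of 7.0 and read as 150 bp pairs. The submitters' processing notes name Bowtie2 2.2.3, TopHat2 2.0.12, HTSeq 0.6.1 and DESeq 1.18.0; their roles, the genome build and the strand setting are not given in the sources used here. The deposited counts give unnormalized reads for each Ensembl gene. The FPKM values deposited by the authors scale fragments to gene length and library total, and were used for levels between genes. The gene lengths they imply match GENCODE M21 mean transcript lengths (tolerance 0.001) in 97.4% of 34180 genes, so symbols and GRCm38 coordinates come from that annotation; 54723 of 54838 identifiers were in it.

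The test was edgeR's robust quasi-likelihood F-test (version 4.0.16, R 4.3.3) on the counts: TMM factors, filterByExpr over the 4 groups (18214 genes kept), 1 mean per group over all 16 libraries, and Benjamini-Hochberg adjustment over all genes tested with a threshold of 0.05. Standard errors are the absolute log2 fold change over the root of F. CPM are counts per 1e6 counts after TMM scaling, and log2 CPM for correlations used a prior count of 2. The 5 contrasts were GOF against control in each sex, males against females in each genotype, and their interaction. The alternatives were DESeq2 1.42.0, RLE and upper-quartile factors, no filter, a minimum of 10 counts per library, fits restricted to the groups compared, limma 3.58.1 on log2(FPKM + 1) or log2(FPKM + 0.1) above a mean FPKM of 0.5 or unfiltered, voom with sample weights, animal-number range as a covariate, a minimum absolute log2 fold change of 1, and leaving out libraries. The fit was tested on simulated data.

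The 41 genes, the lists and the rules were chosen with earlier results of these data known. Values of every library are printed for 23 genes: in each role the gene with the highest mean FPKM, the lowest p in GOF females and the lowest p for the interaction, and any gene called in GOF males or for the interaction. Cdc45 and the libraries of other named pathway genes were added after their values were seen. Of other replication genes and G1/S regulators, the 3 lowest p in each direction and GOF contrast are named, and the most similar genes are the 10 with the highest r to the mean z-score of the 41. Some genes of these lists are not reported here by name. Tables were made in Python 3.11.15 (numpy 2.4.6, pandas 2.3.3) and drawn with matplotlib 3.10.9.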

Additional observations from a re-analysis of the deposited data

Results flagged for a closer look

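In 96 sets of 4 libraries (the 23 genes with printed values and the summed level, in 4 groups), the highest or lowest library was compared with the others by its gap to the nearest one, divided by the range of the set. The gap exceeded Dixon's critical value for 4 samples 5 times, and chance gives about 1 in 20 sets. Gins2 was 4.37 CPM in female control 1, against 6.66 to 7.02 CPM in the other female controls, and the summed level of the 41 genes in the same library was 724.9 CPM against 953.7 to 998.4 CPM. Orc1 was 1.14 CPM in male GOF 1, against 1.54 to 1.58 CPM in the other male GOF libraries. Pola2 was 22.9 CPM in female control 4, against 17.4 to 18.04 CPM in the others, and Pold1 was 12.2 CPM in male control 1, against 15.4 to 15.74 CPM.

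For 7 genes the test of the sex difference in the GOF effect passed, with a lower log2 fold change in males than in females. The interaction on the log2 scale was -0.88 for Mcm4, -1.04 for Rpa2, -1.03 for Pola1, -0.80 for Mcm2, -1.19 for Lig1, -1.20 for Cdt1 and -0.83 for Rrm1.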

How the results depend on the processing

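For the 41 genes in 5 contrasts and 26 other named genes in the contrasts given for them, no called value reversed its direction under the up to 29 alternatives that gave a value (28 for the interaction, and 3 fewer for Fen1 and Hemgn). Of these values, 6486 stayed on their side of the threshold, 332 fell below it and 108 rose above it. The number of the 41 genes called in GOF females was 26 without female control 1, female control 3 and male control 2 together, 18 with an absolute log2 fold change of at least 1, and 34 to 40 when 1 library was left out. In GOF males it was 2 with voom (1 higher, 1 lower), 0 without those 3 libraries (5 higher at an unadjusted p under 0.05 in edgeR), 0 with the threshold of 1, and 1 to 5 when 1 library was left out. For male against female controls, the range of animal numbers as a covariate gave 0 calls (3 at an unadjusted p under 0.05) and a median of -0.17, the threshold of 1 gave 2 calls, and leaving out 1 library 11 to 19. For male against female GOF, the covariate gave 22 calls and a median of -0.90, limma on log2(FPKM + 1) without a filter a median of -1.03, and leaving out 1 library 37 to 41 calls. The interaction gave 16 calls with DESeq2, 19 with voom, 2 with limma on log2(FPKM + 1) without a filter, 0 without the 3 libraries (19 at an unadjusted p under 0.05), 4 with the threshold of 1, and 3 to 22 when 1 library was left out. Medians without 1 library ran from 0.81 to 1.08 in females, 0.039 to 0.23 in males, -0.58 to -0.42 between controls, -1.48 to -1.20 between GOF groups and -0.95 to -0.72 for the interaction. The threshold of 1 lowers counts by construction; for the other settings the cause was not tested. Over all genes, with the threshold of 1 and over the fits without 1 library, 3.97% and 11.8% to 19.0% were higher in GOF females, 5.0% and 10.3% to 14.6% higher in GOF males, 3.15% and 6.86% to 10.4% lower in male controls, 4.39% and 12.3% to 16.6% lower in male GOF, and 1.08% and 1.05% to 3.24% had a negative interaction. Negative interactions were 5.48% with voom and 0.471% with limma without a filter. The fit of only the groups compared gives no interaction value. No paired analysis was possible because the labels carry no replicate numbers and each mouse is in 1 group only.

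With 4 libraries a group and 7 to 32 counts per library for Fen1 and 16 to 148 for Orc1, these genes rest on few counts. FPKM values put the median of all genes 0.10 to 0.12 higher in GOF on the log2 scale in males and 0.11 in females with a pseudocount of 0.1 in fits with a filter on low FPKM; without the filter the shift was 0.014 in males and 0.002 in females.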

Other observations

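Cyclins and MYC around the G1/S step were looked at after their values were seen. Ccne2, cyclin E2, had 2.91, 6.65, 4.93 and 6.16 CPM in female controls and 5.41, 17.9, 11.7 and 15.4 CPM in female GOF, so that it rose by 1.29 ± 0.34 on the log2 scale (SE; edgeR adjusted p 0.00714), while male controls had 2.80 to 4.61 CPM and male GOF 2.65 to 4.71 CPM (-0.023 ± 0.33, adjusted p 0.967). Ccna2, cyclin A2, ranged from 15.3 to 61.8 CPM in female GOF and from 8.22 to 24.5 CPM in female controls, and its change of 1.34 ± 0.52 did not pass (edgeR adjusted p 0.0542); in males it was 1.51 to 11 CPM in controls and 4.08 to 10.5 CPM in GOF. Myc was lower in male than in female controls by -1.09 ± 0.18 (edgeR adjusted p 0.000628), at 26.8 to 39.7 against 57.1 to 76.7 CPM, and rose with GOF in both sexes, with an interaction of -0.22 ± 0.25 (adjusted p 0.651).

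Among the genes whose levels most resembled the mean of the 41, Melk, a kinase of dividing cells, averaged 5.33, 16.5, 2.57 and 2.67 CPM in female control, female GOF, male control and male GOF. Incenp, a subunit of the chromosomal passenger complex, averaged 30.0, 56.6, 15.3 and 21.2 CPM. Since these genes were picked for their likeness to the 41, their values are a description.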
